A study of Mus musculus with 3 samples.

Results

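Gastrocnemius RNA from mice given tamoxifen for 48 h was compared with gastrocnemius RNA from mice given tamoxifen for 24 h, in transgenic mice whose skeletal muscle makes Akt fused to an oestrogen-binding domain, a fusion that tamoxifen stabilises. The comparison uses 2 of the 3 arrays of the series, which were chosen by their labels alone, and the third array, from mice given oil for 24 h, is printed beside them for reference. Every group was 1 Affymetrix Mouse 430 2.0 array hybridised with total RNA pooled from 3 to 4 mice. The strain was C57BL/CD1 and the genotype label, shared by all 3 groups, reads Akt_Cre transgenic. The sources used here do not give the promoter that drives the fusion, the role of Cre, or the age and sex of the mice. No oil array at 48 h was analysed here, so the second day of tamoxifen cannot be told apart from any other difference between the 2 pools, such as time of day, feeding or handling. All groups carry the transgene, so effects of tamoxifen itself cannot be told apart from those of Akt.

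Akt is the kinase through which insulin and IGF1 raise protein synthesis and glucose storage in muscle, and it keeps FoxO transcription factors, which switch on ubiquitin ligases and genes of fasting metabolism, out of the nucleus. Its activation in adult muscle enlarges the fibres. Gastrocnemius is a calf muscle made mostly of fast, glycolytic fibres, with a smaller share of slow, oxidative fibres. The arrays measure the whole muscle, so a lower signal can mean fewer cells of a type or less RNA in each cell, and these cannot be told apart in bulk RNA. The question here is what differs between the second day and the first day of the treatment.

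Each value is a scaled intensity, the brightness of a probe set (a group of short probes against the same transcript) after the arrays were brought to a common median. A gene was read on its brightest kept probe set, and the log2 ratio is tamoxifen 48 h minus tamoxifen 24 h, so a ratio of 1 is 2-fold higher at 48 h. There is no replicate and no test, and the words higher and lower, used of a count of genes, mean 2-fold or more. Of 11092 genes compared, 200 were higher at 48 h (1.8%) and 157 were lower (1.42%), while 9677 (87.2%) lay within 1.5-fold. The median ratio of all genes was -0.02 and their standard deviation 0.42. The split of the called genes depended on scaling: 56.0% of the calls were higher with a common median, 29.3% with the deposited values, where the median gene stood at -0.18, 43.0% after quantile normalization and 47.2% after lowess centring. Low signals gave most of the calls. In the dimmest 2773 genes, with a mean intensity up to 40.6, 8.40% of genes passed 2-fold and the standard deviation of the ratio was 0.58, and in the brightest 2773, from 245 upwards, 1.05% passed and the standard deviation was 0.30. The 9 hybridisation spikes, bacterial and phage transcripts added in known amounts before hybridisation, had log2 ratios from -0.32 to 0.27 with a median of 0.00. The ratio of the 3′ to the 5′ control probe sets, a measure of RNA integrity, was 0.951 at 24 h and 1.10 at 48 h for Actb and 0.867 and 0.826 for Gapdh.

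**Figure D1:**
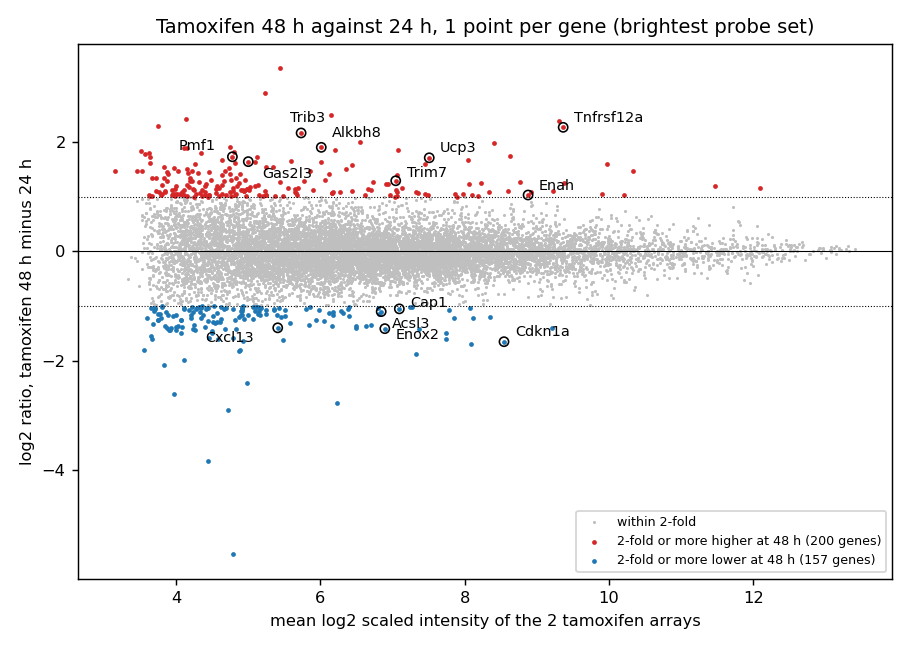
Each point is a gene on its brightest probe set: the horizontal axis is the mean log2 scaled intensity of both tamoxifen arrays and the vertical axis the log2 ratio of 48 h to 24 h, with dotted lines at 2-fold. Red points (200 genes) are 2-fold or more higher and blue points (157 genes) 2-fold or more lower at 48 h, and they thin out towards bright genes; black rings mark the 13 genes whose probe sets were concordant, with the brightest among those past 2-fold.

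Genes read by several probe sets give a technical check of a ratio, although their probe sets share the RNA, and sometimes the probed sequence, and are not replicates. Of the 11092 genes, 5001 had 2 or more kept probe sets. The pooled standard deviation of the ratio between probe sets of a gene was 0.44, and in 770 of these genes (15.4%) the probe sets spanned more than 1 on the log2 scale. All probe sets had the same sign in 47 of the 80 called genes with 2 or more sets (58.8%), against 2296 of all 5001 (45.9%). Genes with at least 2 probe sets past 2-fold and all sets of the same sign numbered 23 higher (0.46%) and 7 lower (0.14%). In 15 of the 23 and 2 of the 7, however, the brightest probe set was itself within 2-fold. Requiring the brightest probe set to be among those past 2-fold, a rule added after the values were seen, left 8 higher genes (0.16%) and 5 lower genes (0.1%), which are called concordant below.

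Tnfrsf12a, the receptor for the cytokine TWEAK, had the largest ratio of the concordant genes. Its probe sets read 131 and 118 on the oil array, 301 and 355 at tamoxifen 24 h and 1446 and 1291 at 48 h. The 48 h array was 4.81-fold above the 24 h array on the brighter set and the log2 ratio was 1.86 on the other. On both sets the arrays stood in the order oil, 24 h, 48 h.

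Trib3, a pseudokinase that binds Akt and is induced by amino acid and endoplasmic reticulum stress, read 21.3 on oil, 25.1 at tamoxifen 24 h and 112 at 48 h on its brighter set, 4.48-fold higher at 48 h than at 24 h. Its other set read 10.1, 27.8 and 88.4. The 48 h array was the high array on both. Ucp3, a mitochondrial carrier of muscle that is induced by fatty acids, read 106, 101 and 329 in the same order on its brighter set, 3.27-fold higher, and 98.3, 99.9 and 218 on the other. Here oil and tamoxifen 24 h lay close together and 48 h stood alone.

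Trim7, a ubiquitin ligase that binds the glycogen primer glycogenin, read 59.0 on oil, 84.3 at tamoxifen 24 h and 206 at 48 h, 2.45-fold higher. Its second set read 12.5, 11.3 and 31.5. Enah, an actin filament regulator, read 326, 329 and 673 on the brightest of its 4 sets, 2.04-fold higher, and its other sets gave log2 ratios from 0.62 to 1.39. Enah was past 2-fold under 8 of 11 alternative settings, with a lowest ratio of 0.82. Pmf1, a kinetochore protein, read 22.7, 15.1 and 49.95, and its other set 11.0, 8.61 and 36.5. In these 3 genes the 48 h array was again the high array on the sets given.

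Alkbh8 and Gas2l3 had another shape, with 24 h as the low array. Alkbh8, an enzyme that modifies tRNA, read 116 on oil, 33.4 at tamoxifen 24 h and 125 at 48 h, 3.73-fold higher at 48 h, and 43.8, 18.8 and 38.9 on its other set. Gas2l3, a cytoskeletal linker protein, read 79.2, 18.1 and 56.4 on its brightest set and 67.6, 14.3 and 52.4 on another, while its remaining set read 48.4, 31.9 and 40.2. For both, the 48 h reading was within 2-fold of oil. With probe sets ranked over the tamoxifen arrays alone, the gene was read on that remaining set and the ratio of Gas2l3 was 0.34.

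Cdkn1a, which encodes the cell cycle inhibitor p21, had the lowest ratio of the concordant genes. It read 148 on oil, 661 at tamoxifen 24 h and 211 at 48 h on its brighter set, 3.14-fold lower at 48 h than at 24 h, and 51.7, 150 and 39.6 on the other. The 24 h array was the high array on both. Enox2, a surface oxidase of NADH, read 142, 194 and 72.8, 2.66-fold lower, and 43.4, 85.7 and 31.4 on its other set. Cxcl13, a chemokine that attracts B lymphocytes, read 50.01, 68.8 and 26.2, 2.63-fold lower, and 36.3, 48.9 and 22.9 on the other.

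Acsl3, an enzyme that activates fatty acids for lipid synthesis, read 119 on oil, 168 at tamoxifen 24 h and 78.4 at 48 h, 2.14-fold lower, with ratios of -1.61 and -1.88 on its other 2 sets. Cap1, an actin-binding protein, read 134, 196 and 94.9, 2.07-fold lower, and 156, 186 and 80.2 on its other set. For all 5 lower genes the 24 h array was highest, and the 48 h array was lowest except on the brighter set of Cdkn1a. The concordant genes were chosen on the 24 h and 48 h values, so the order of these arrays was fixed by the rule.

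**Figure D2:**
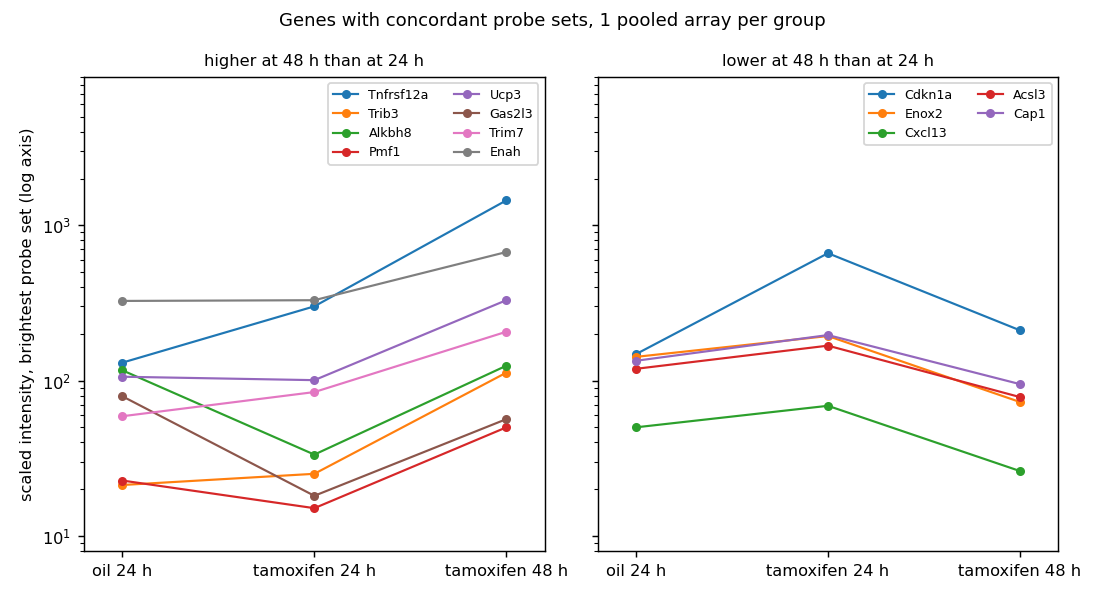
Scaled intensity (log axis) of the brightest probe set of the 8 concordant higher genes (left) and the 5 concordant lower genes (right) on the oil, tamoxifen 24 h and tamoxifen 48 h arrays, 1 pooled array each, with no error bars. Tnfrsf12a climbs from 131 through 301 to 1446, Alkbh8 and Gas2l3 dip at 24 h only, and all 5 genes on the right peak at 24 h. The order of the tamoxifen arrays follows from the choice of genes.

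The remaining 17 genes with agreeing sets, whose brightest set was within 2-fold, rest on dimmer probe sets. Zbtb20, a transcriptional repressor, had 9 kept sets, all higher at 48 h, with ratios from 0.22 to 1.41; its brightest read 703 on oil, 352 at tamoxifen 24 h and 584 at 48 h. Mef2c, a transcription factor of muscle, read 1422, 2023 and 2605 on its brightest set, a ratio of 0.36, and 715, 440.0 and 1499 on another, a ratio of 1.77. Per3, a clock repressor, had a ratio of 0.08 on its brightest set and 2.83 on a set that read 40.4 on oil, was under the floor at 24 h and read 28.8 at 48 h. Trdn, which links the calcium release channel to calsequestrin, gave 0.08 on a set reading 5789, 5142 and 5453 and 1.16 on a set reading 16.6, 23.5 and 52.3. Uqcr10, a subunit of respiratory complex III, was -0.12 on its brightest set and -1.64 on a set that read 139.7, 863 and 277. The sets of these genes do not all follow the same course over the 3 arrays.

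Kinds of probe sets also differed in their counts over the whole array. Of 8270 kept probe sets that were not the brightest of their gene, 422 (5.10%) were higher and 149 (1.80%) lower at 48 h. Of 1896 kept sets with no gene in the platform annotation, 223 (11.8%) were higher and 26 (1.37%) lower. The asymmetry was present at higher signal too: above an intensity of 40.6, 32 of 689 unlisted sets were higher and 4 lower, against 75 and 49 of 8319 brightest sets. At 24 h, 262 unlisted sets stood 2-fold or more below the oil array and 27 above it, and at 48 h 96 stood below and 71 above. Probe sets matched to several genes showed no such excess, with 6 higher and 6 lower of 546. They were brighter, with a median intensity of 204 against 27.7 for unlisted sets. Up to 40.6, 4 of 109 were higher and 3 lower, and above it 2 of 437 were higher and 3 lower. What the unlisted sets detect was not tested. Gsk3b, the glycogen synthase kinase that Akt inhibits, shows the pattern within a gene: its brightest set read 324 on oil, 253 at tamoxifen 24 h and 190 at 48 h, while another read 283, 54.1 and 231.

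**Figure D3:**
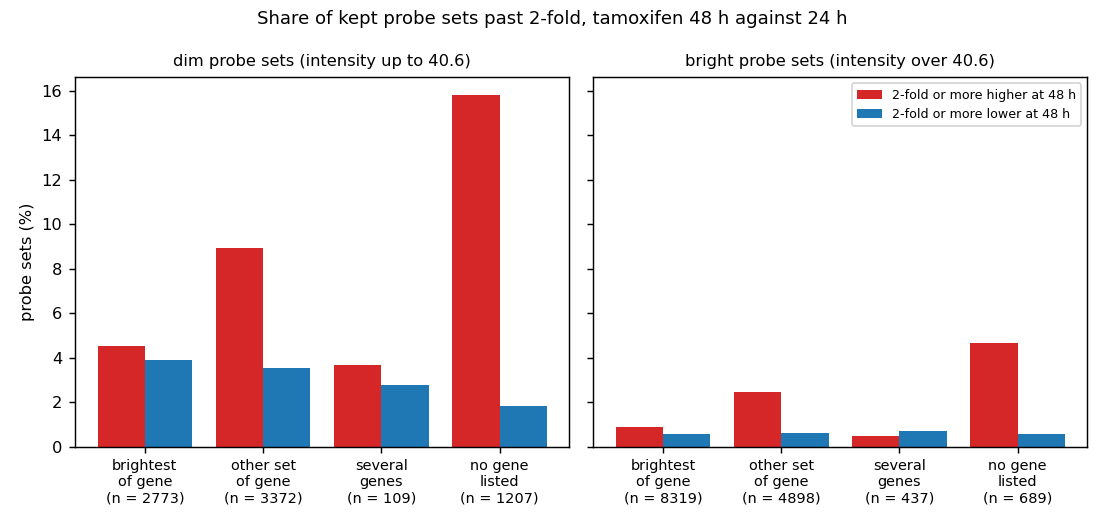
Percent of kept probe sets that were 2-fold or more higher (red) or lower (blue) at tamoxifen 48 h than at 24 h, by kind of probe set, for sets with a mean intensity up to 40.6 (left) and over 40.6 (right); n under each pair is the number of sets. Sets with no gene listed have the tallest red bars in both panels (191 of 1207 and 32 of 689) and blue bars no taller than those of the brightest sets.

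Genes read by a single probe set cannot be checked in this way. Among those brighter than the median set on the higher array, the highest ratios belonged to Opn1mw, a cone opsin (51.5 on oil, 13.6 at 24 h, 139 at 48 h), and Rpgrip1, a photoreceptor cilium protein (17.0, 13.8 and 102), which were 10.2-fold and 7.39-fold higher. Tceal7 read 240.4, 276 and 1440.4 and was 5.21-fold higher. Atp1b4, a muscle protein related to sodium pump subunits, read 21.6, 71.2 and 257, 3.61-fold higher. Klhl41, a sarcomere-associated kelch protein needed for myofibril upkeep, read 588, 771 and 2141, 2.78-fold higher. Zfp593 (3.12-fold), Crybb1, a lens crystallin (2.82-fold), and Npc1, which exports cholesterol from lysosomes (2.67-fold), were also among the 10 highest. Npc1 read 112 on oil, 42.4 at tamoxifen 24 h and 113 at 48 h, so that its 24 h reading was the one apart.

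Of the single-set genes at the other end, Gdpd3, a lysophospholipase, read 18.5 on oil and 188 at 24 h and was at the floor at 48 h, at least 46.3-fold lower. Tmem232 read 105, 81.5 and 5.74 (14.2-fold lower), Fhl3, a LIM-domain protein of muscle, 55.8, 71.7 and 9.67 (7.41-fold lower), and Cilp2, a cartilage matrix protein, 74.5, 73.0 and 13.7 (5.31-fold lower). In these 3 the 48 h array was low beside 2 similar readings. Inmt, a methyltransferase of small amines, read 965, 959 and 365 (2.63-fold lower), and Gfpt2, which feeds glucose into hexosamines, 111, 114 and 44.7 (2.55-fold lower). A floor at the 50th percentile of all values brought Gdpd3 to -3.73, Tmem232 to -2.53 and Fhl3 to -2.35.

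The oil array, taken at 24 h, gives the called genes a position on each day, and at 48 h that position is not matched in time. Of the 200 higher genes, 50 were near oil (within 2-fold) on the first day and 2-fold or more above it on the second, 68 were 2-fold or more below oil on the first day and near it on the second, and 12 were above oil on both days. A further 66 were within 2-fold of oil on both days. The 50 included Klhl41, Tceal7, Enah and Casq2, the 68 Pdk4, Chac1 and Nrip1, and the 12 Tnfrsf12a, Mybph, Actc1 and G0s2. Of the 157 lower genes, 75 were near oil on the first day and 2-fold or more below it on the second, among them Inmt, Ddit4, Pfkfb3 and Gadd45g. Another 15 were above oil at 24 h and within 2-fold at 48 h, among them Cdkn1a and Sln, and 63 stayed within 2-fold of oil on both days. Each of these positions rests on single arrays. The called genes were also chosen on the same 24 h and 48 h readings. A reading that is low or high by chance can therefore give a gene its position. Of all 11092 genes, 275 stood 2-fold or more below oil at 24 h and 261 above it. At 48 h, 301 stood below and 413 above. Whether the positions reflect a course over time was not tested.

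**Figure D4:**
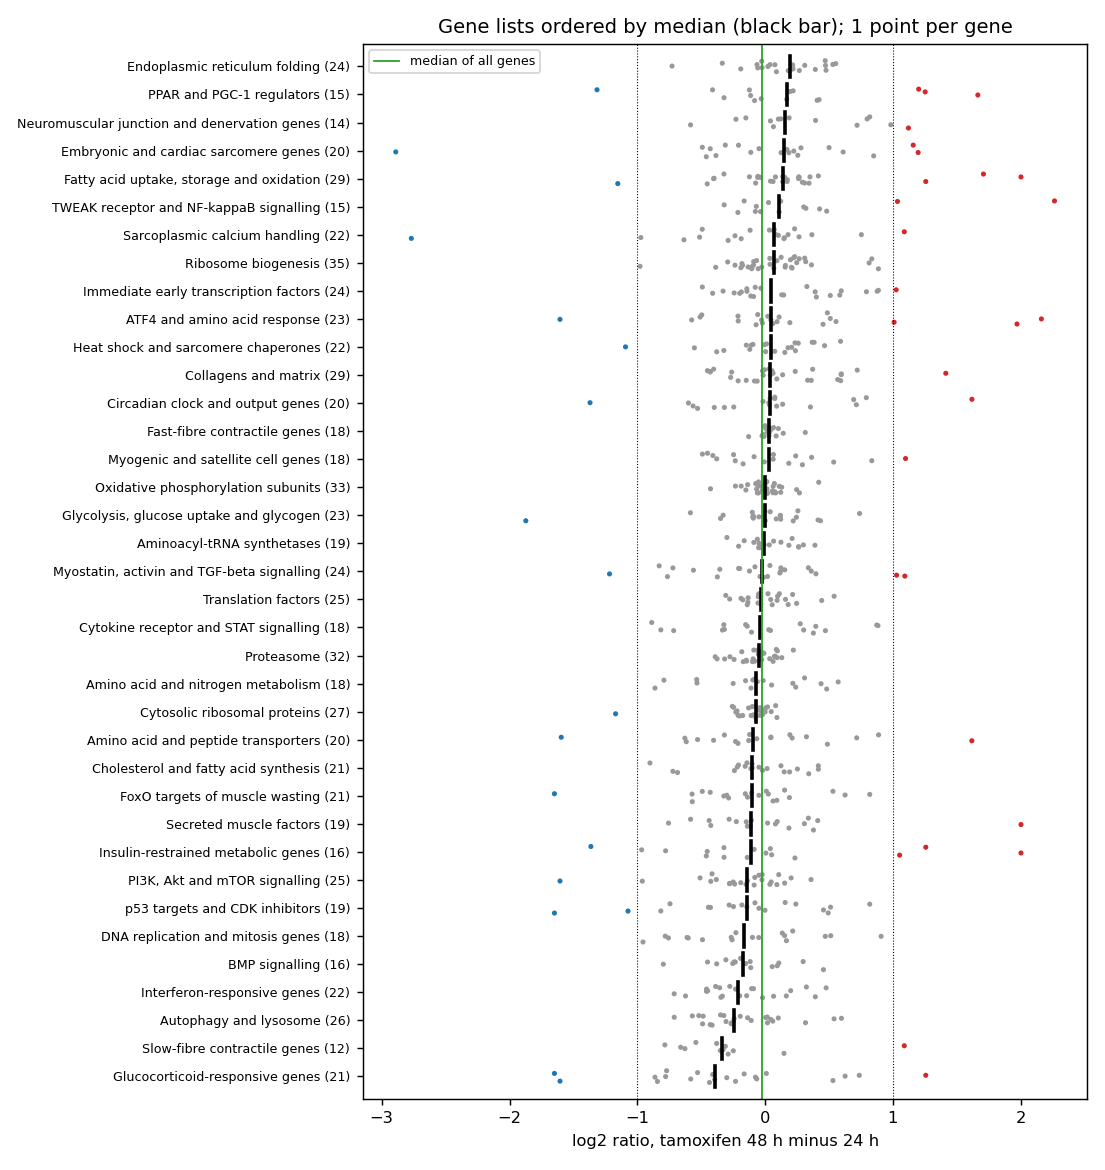
Log2 ratio of tamoxifen 48 h to 24 h for every compared gene of 37 gene lists (number of genes in brackets), ordered by list median (black bar); red and blue points are 2-fold or more higher or lower, and the green line is the median of all genes. The endoplasmic reticulum folding list has the highest median (0.20), the slow-fibre (-0.34) and glucocorticoid-responsive (-0.39) lists the lowest, and most points of every list lie within the dotted 2-fold lines.

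The gene lists were described by their counts and medians, to be read against 1.8% higher, 1.42% lower and a median of -0.02 over all genes, of which 5205 (46.9%) were above 0 and 5887 below. Scaling moved list medians together with the median of all genes; taken relative to it, 34 of 37 medians kept their sign under 4 scalings. The exceptions were the myogenic, the TGF-beta and the translation factor lists. The deposited values differ from the common median by a constant shift of the log2 ratio, apart from values at the floor. Both therefore give the same relative medians, and their agreement is no check.

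ATF4 is the transcription factor that cells use when amino acids run short or proteins misfold; it raises genes of amino acid supply and, through Ddit3 and Trib3, of stress and feedback. Of 23 genes compared, 3 were higher at 48 h and 1 was lower, and the median was 0.05. The higher genes were Trib3, Chac1, which degrades glutathione (799 on oil, 171 at 24 h, 671 at 48 h, 3.92-fold higher), and Ddit3, which encodes the stress factor CHOP (106, 205 and 412, 2.01-fold higher; 0.92 on its other set). Ddit3 stood in the order oil, 24 h, 48 h, and Chac1 was low at 24 h only. Ddit3 was past 2-fold under 6 of 11 alternative settings, with a lowest ratio of 0.80. Atf3 read 28.2, 58.1 and 82.7, and the serine enzyme Psat1 had a ratio of 0.56. Psph, another serine enzyme, went the other way at 91.0, 172 and 115, a ratio of -0.57. Atf5, another factor of this response, had a ratio of -0.51, and Mthfd2, a mitochondrial folate enzyme, read 34.7, 87.8 and 83.7. The lower gene was Ddit4, discussed with the Akt pathway. The 19 aminoacyl-tRNA synthetases, which load amino acids onto tRNA, had no gene past 2-fold and a median of -0.01.

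ATF4 binds a composite element with C/EBP factors, searched here as TGATGNAA on both strands in the RefSeq promoter windows of GRCm38.p6 (250 bases before to 50 bases after the start of transcription). A match was present in 7 of 22 list genes with a window (31.8%) and in 1304 of 32851 windows of the same length (3.97%). The first share counts genes and the second counts windows, also those of genes not compared here, so they are not fully alike. The same holds for the elements searched below. The windows of Trib3 and Chac1, the list genes with the largest ratios, and of Atf3 are shown with the match in capitals, read on the opposite strand as TTNCATCA. They lie at chr2:152344028-152344057 (minus strand) for Trib3, chr2:119351023-119351082 (plus strand) for Chac1 and chr1:191183410-191183469 (minus strand) for Atf3. The Trib3 match begins 15 bases into the transcribed sequence, and those of Chac1 and Atf3 begin at -193 and -110 from the start site. Ddit3 had no match in its window. Asns, Herpud1, Nupr1 and Vldlr also held a match and, like Atf3, were within 2-fold between the days.
Trib3: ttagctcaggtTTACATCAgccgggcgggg
Chac1: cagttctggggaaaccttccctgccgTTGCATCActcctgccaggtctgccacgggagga
Atf3: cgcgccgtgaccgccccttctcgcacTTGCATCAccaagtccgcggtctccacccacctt

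Endoplasmic reticulum folding genes had the highest list median, 0.20, with 17 of 24 above 0 and none past 2-fold. Relative to all genes the median lay between 0.22 and 0.23 under the 4 scalings. Hspa5 encodes BiP, the main chaperone of this compartment, and read 858, 1397 and 1836 on the oil, 24 h and 48 h arrays, a ratio of 0.39. Calr (calreticulin) read 724, 769 and 1071, Dnajb9, a BiP co-chaperone, 1079.6, 1052 and 1461, and Hyou1, a BiP exchange factor, 82.0, 84.7 and 124. The last 3 were close to oil at 24 h and highest at 48 h. Ero1b, an oxidase that helps form disulphide bonds, went the other way with a ratio of -0.73.

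The endoplasmic reticulum stress element, searched as CCAAT and CCACG set apart by 9 bases of any kind, on both strands, was present in 9 of 20 list genes with a window (45.0%) and in 39 of all 32851 windows (0.119%). It is shown for Hspa5 (chr2:34772004-34772063, plus strand, match at -65) and for Calr (chr8:84847055-84847114, minus strand, match at -162, on the opposite strand), as examples above 0. Ero1b, with the lowest ratio of the list, also held a match. Capitals mark the match, spacer included.
Hspa5: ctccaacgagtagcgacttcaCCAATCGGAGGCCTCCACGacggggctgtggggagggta
Calr: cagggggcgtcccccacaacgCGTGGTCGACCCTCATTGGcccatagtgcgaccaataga

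Cytosolic chaperones had a median of 0.04 and 1 lower gene, Hspa1a, an inducible Hsp70 (69.3, 44.0 and 20.6, 2.13-fold lower). Hspa1b, its near-identical neighbour, read 148, 88.6 and 60.4, and the probe sets of this pair can share transcripts. Small chaperones of the sarcomere were higher by less than 2-fold, with a ratio of 0.47 for Hspb6, 0.38 for Hspb1 and 0.37 for Hspb8. Smyd1, a myosin-folding methyltransferase, read 896, 1212 and 1825, but its 5 sets spanned -0.99 to 0.95.

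Genes of fatty acid use held members among the largest ratios. Of 29 genes of fatty acid uptake, storage and oxidation, 3 were higher and 1 was lower, with a median of 0.14. Angptl4, a secreted inhibitor of lipoprotein lipase, read 28.3 on oil, 46.8 at tamoxifen 24 h and 188 at 48 h, 4.01-fold higher. Pdk4, the kinase that restrains pyruvate oxidation when fat is burned, read 1011, 430.5 and 1029.7, 2.39-fold higher at 48 h. Its 24 h reading was the one apart. Ucp3 was the third. These are known targets of the PPAR nuclear receptors, and so is Fabp3, the muscle fatty acid carrier, at 2674, 4492 and 5407. The droplet protein Plin5, at 179, 402 and 393, was above oil on both days and level between them.

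Among 15 regulators of the PPAR and PGC-1 families, 3 were higher and 1 was lower, and the median was 0.17. Ppargc1b, the coactivator PGC-1 beta, read 195, 194 and 463, 2.38-fold higher, and Ppard, the PPAR most abundant in muscle, 29.6, 22.4 and 51.5, 2.30-fold higher. Nrip1, a corepressor of oxidative genes, read 370, 149 and 472, 3.17-fold higher, but its 6 sets ran from -0.03 to 3.12. Ppargc1a, which encodes PGC-1 alpha, was at 151, 166 and 133. The lower gene was Nrf1, a regulator of respiratory genes (33.6, 36.6 and 14.7), whose other set gave -0.35. None of 33 oxidative phosphorylation subunits was past 2-fold, and their median was 0.00. G0s2, an inhibitor of triglyceride breakdown, read 259, 666 and 1382 and was 2.08-fold higher, past 2-fold under 8 of 11 alternative settings with a lowest ratio of 0.84.

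The lower gene of the fatty acid list was Lipe, hormone-sensitive lipase, which is abundant in fat cells. It read 57.9, 108 and 48.5, 2.22-fold lower at 48 h. The lipogenic genes Fasn, Scd1 and Srebf1 had ratios of -0.90, -0.72 and -0.68, each highest at 24 h, and the 21 cholesterol and fatty acid synthesis genes had none past 2-fold and a median of -0.10. Beside them, all 4 compared adipocyte markers were lower at 48 h, with ratios from -1.05 (Retn) to -0.40 (Fabp4), and their summed intensity was 4609 on oil, 5275 at 24 h and 3924 at 48 h. Adipoq, the most specific of them, read 564, 674 and 469, and Lep lay below the filter. The part of fat cells in these ratios was not tested.

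The list of PI3K, Akt and mTOR signalling had no higher gene and 1 lower gene of 25, with 18 below 0 and a median of -0.14. Ddit4, also called REDD1, which restrains mTOR complex 1, read 269 on oil, 372 at tamoxifen 24 h and 122 at 48 h, 3.04-fold lower. Pik3r1, the regulatory subunit of PI3K, read 212, 339 and 174, a ratio of -0.96, with its other sets between -1.26 and 0.50. Akt1 read 100.3, 133 and 112 and Akt2 220.4, 280.0 and 231. Whether these probe sets detect the fusion was not examined. Igf1 (682, 645 and 586) and Foxo3 (134, 96.8 and 98.5) differed little between the days, and Foxo1 read 157, 229 and 154.

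FoxO targets of muscle wasting had 1 lower gene of 21, Cdkn1a, and a median of -0.11. Fbxo32, the ubiquitin ligase atrogin-1, had most of its difference from oil by 24 h (490.1 on oil, 93.4 at 24 h, 75.9 at 48 h). Trim63, the ligase MuRF1, read 2113, 745 and 1150.0, so that 48 h lay between the other arrays. Of 16 genes that insulin restrains, 3 were higher (Angptl4, Pdk4 and G0s2) and 1 was lower: Depp1, a FoxO target, at 179, 159 and 61.8, 2.57-fold lower, with its other set at -0.81. The transcription factors Cited2 (656, 812 and 416) and Klf15 (253, 126 and 73.2) had ratios of -0.97 and -0.78. The members of this list thus lay on both sides of 0, with a median of -0.11. In 26 autophagy and lysosome genes none passed 2-fold, 17 were below 0 and the median was -0.24; the largest ratio was -0.71, for Atg14, an activator of autophagosome formation.

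The glucocorticoid-responsive list had the lowest median of the 37, -0.39, with 16 of 21 genes below 0, 2 lower and 1 higher. Relative to all genes its median lay between -0.37 and -0.35 under the 4 scalings. It shares Cdkn1a, Ddit4 and Pdk4 with lists already described. Fkbp5, a chaperone of the glucocorticoid receptor and a common reporter of its activity, read 439.7 on oil, 863 at tamoxifen 24 h and 481 at 48 h, a ratio of -0.84, with -0.59 on its other set. Cebpd read 362, 489.9 and 287, a ratio of -0.77. Glul, glutamine synthetase, read 2361, 1118 and 615, in the order 48 h, 24 h, oil from low to high, without passing 2-fold between the days. Zbtb16 went the other way, at 335, 317 and 528. Fkbp5, Cebpd, Ddit4 and Cdkn1a were all highest on the 24 h array. The list as a whole did not share this position. Its median ratio of 24 h to oil was -0.10, with 2 genes 2-fold or more above oil at 24 h and 5 below.

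Clock genes, which follow the time of day, were compared because the sources used here give no hour of sampling. Of 20, 1 was higher and 1 lower, and the median was 0.04. Bhlhe41, a clock repressor, read 11.9, 16.0 and 49.2, 3.07-fold higher, and Nfil3, a repressor in antiphase to the activator Dbp, 72.6, 144 and 55.8, 2.58-fold lower. Arntl (28.4, 30.8 and 53.4) and Nr1d1 (109.8, 182 and 294), which normally peak at opposite times, had ratios of 0.79 and 0.69. Per1 had a ratio of -0.53. The clock element CACGTG was also searched in the promoter windows. It was present in 5 of 17 list genes with a window (29.4%) and in 2349 of all 32851 windows (7.15%). The matched genes were Bhlhe41, Ciart, Cry1, Per1 and Tef, of which only Bhlhe41 passed 2-fold. A difference in hour between the arrays was not tested.

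Structural genes of the muscle were described by fibre type, and the difference between the slow and the fast list was not tested. Slow-fibre contractile genes had a median of -0.34 and 10 of 12 below 0, while fast-fibre genes had a median of 0.03 and none past 2-fold in 18. Tpm3, slow tropomyosin, read 1174 on oil, 1203 at tamoxifen 24 h and 698 at 48 h, with a ratio of -0.80 on its second set and 0.00 to 1.16 on its other 3. Tnnc1 and Tnni1, slow troponin subunits, read 1208, 1347 and 852, and 611, 732 and 474. Myh7, the myosin heavy chain of slow fibres, was at 1042, 895 and 615. None of these reached 2-fold, and in all of them 48 h was the lowest array. Casq2, the calcium store protein of slow and cardiac muscle, was above 0 at 187, 221 and 471, 2.13-fold higher, past 2-fold under 8 of the 10 alternative settings that kept it (lowest ratio 0.88). Fast myosins and troponins were among the brightest sets on the array, for example Tnnt3 at 11399, 10760 and 11135, where a probe set can be near the top of its range.

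**Figure D5:**
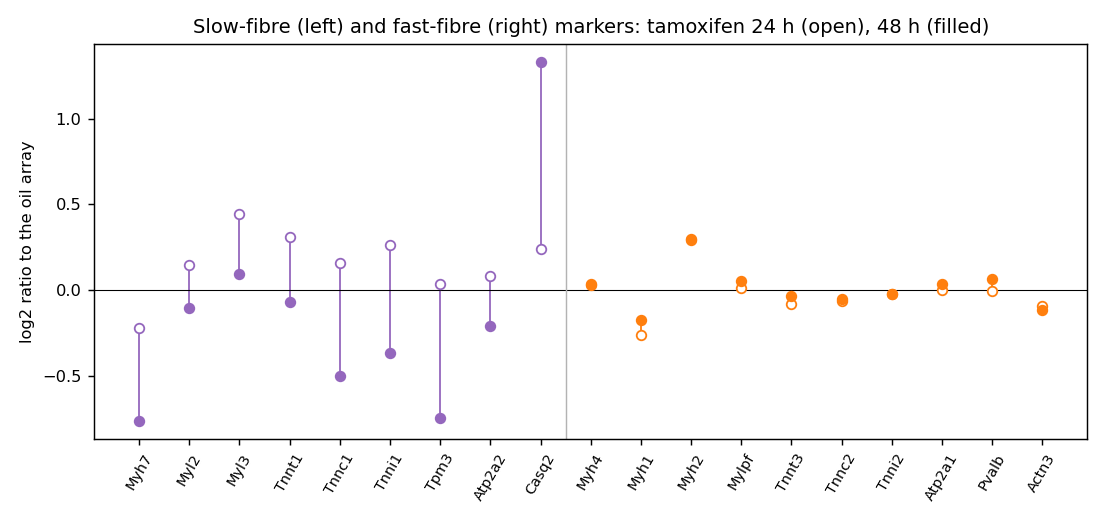
Log2 ratio of each tamoxifen array to the oil array for 9 slow-fibre markers (purple) and 10 fast-fibre markers (orange), with open circles for 24 h and filled circles for 48 h, 1 array each. In 8 of 9 slow markers the filled circle lies below the open one, Casq2 is the exception, and the fast markers differ by at most 0.09 between the days.

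Among genes of calcium handling, 1 of 22 was higher (Casq2) and 1 was lower. Sln encodes sarcolipin, a small peptide that slows the calcium pump, and read 48.7 on oil, 196 at tamoxifen 24 h and 28.8 at 48 h, 6.81-fold lower. The 24 h array alone was high. Mrln, which encodes myoregulin, a peptide of the same kind in fast fibres, read 953, 1196 and 610, a ratio of -0.97. Cacnb1, a subunit of the voltage sensor of contraction, read 381, 477 and 805, a ratio of 0.75.

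Cardiac and embryonic sarcomere genes had 2 higher and 1 lower of 20, and a median of 0.15. Mybph, a myosin-binding protein, read 259 on oil, 1874 at tamoxifen 24 h and 4299.8 at 48 h, 2.29-fold higher on the second day. Actc1, cardiac actin, read 1461, 2932 and 6551, 2.23-fold higher. Xirp1, an actin-binding protein of damaged and growing fibres, read 158, 364 and 656. All 3 stood in the order oil, 24 h, 48 h. The lower gene was Fhl3. Actb, the cytoplasmic actin often used as a reference, read 3236, 2547 and 4461 on its brighter set, a ratio of 0.81. Its other set gave -0.29, and its 3′, middle and 5′ control sets gave 0.35, 0.78 and 0.14. Acta1, the main muscle actin, read 9455, 8767 and 9372 and Ckm, muscle creatine kinase, 9693, 9204 and 9580.02.

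Neuromuscular junction and denervation genes had a median of 0.16, with 11 of 14 above 0. Ache, acetylcholinesterase, read 47.8, 89.7 and 195 and was 2.18-fold higher at 48 h. Chrna1, the acetylcholine receptor subunit alpha, read 120.3, 182 and 360.4, a ratio of 0.98. Musk, the kinase that clusters the receptor, was highest at 24 h, at 75.7, 145 and 96.6. Myog (myogenin), which switches on receptor subunit genes, read 62.7, 59.2 and 127, 2.14-fold higher, and was the only called gene among 18 myogenic and satellite cell genes. Ache and Myog were each past 2-fold under 9 of 11 alternative settings, with lowest ratios of 0.91 and 0.89. Cdh15, a cadherin of satellite cells, read 43.5, 104 and 150.4. Pax7, the defining satellite cell factor, lay near the dim end at 18.5, 13.01 and 13.6. Of 5 compared satellite cell markers, 2 were above 0 and 3 below. Their median was -0.38, with sums of 269 on oil, 326 at 24 h and 320 at 48 h.

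Myogenin and its relatives bind E-boxes, searched here as CAGCTG, which reads the same on both strands. A match was present in 4 of 11 neuromuscular junction and denervation genes with a window (36.4%) and 4 of 19 sarcomere list genes (21.1%). Of all 32851 windows, 5355 held a match (16.3%). It is shown for Chrna1, with matches at -92 and -44 (chr2:73580354-73580453, minus strand), and for Mybph, with a match at -79 (chr1:134193342-134193401, plus strand), chosen because they stood in the order oil, 24 h, 48 h. Musk, which was highest at 24 h, also held a match. Capitals mark the matches.
Chrna1: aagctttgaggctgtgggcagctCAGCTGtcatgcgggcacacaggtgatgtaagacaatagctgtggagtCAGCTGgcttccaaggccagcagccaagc
Mybph: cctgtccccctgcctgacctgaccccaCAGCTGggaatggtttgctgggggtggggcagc

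In glycolysis and glycogen metabolism 1 of 23 genes was lower and none higher, with a median of 0.00. Pfkfb3, which makes the glycolytic activator fructose 2,6-bisphosphate, read 444 on oil, 308 at tamoxifen 24 h and 84.0 at 48 h, 3.66-fold lower, and its other set gave -0.64. Hk2, the insulin-induced hexokinase, had a ratio of 0.43. Of 20 amino acid and peptide transporters, Slc38a1, a glutamine carrier, was 3.07-fold higher on a dim set (21.7, 7.10 and 21.8), and Slc15a2, a peptide carrier, 3.02-fold lower (102, 41.7 and 13.8). Slc15a2 stood in the order 48 h, 24 h, oil from low to high. Smox, a polyamine oxidase, followed the same order at 797, 384 and 222, a ratio of -0.79.

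Lists of protein synthesis and of the proteasome held 1 gene past 2-fold. Of 35 ribosome biogenesis genes none passed 2-fold, with a median of 0.07 and ratios from -0.98 (Polr1a, the large subunit of RNA polymerase I) to 0.89 (Myc, an activator of ribosome production, at 30.9, 17.9 and 33.1). Of 27 cytosolic ribosomal protein genes 1 was lower, Rps27 on a dim set (51.3, 47.8 and 21.3), and the median was -0.07. No translation factor of 25 and no proteasome subunit of 32 passed 2-fold, with medians of -0.03 and -0.04.

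In the TGF-beta family, which includes signals that restrain muscle growth, 2 of 24 genes were higher and 1 was lower. Ccn2, a matricellular target of TGF-beta, read 271, 421 and 181, 2.32-fold lower. Inhbb, an activin subunit, was 2.13-fold higher but had -0.49 on its other set, and Tgfb2 was 2.04-fold higher with sets from -0.64 to 1.03. Acvr2a, an activin receptor, had a ratio of -0.83 (563, 799 and 450). Smad2 and Smad3, named in the title of the series, read 68.5, 88.4 and 96.2, and 333, 398 and 366, with ratios of 0.12 and -0.12. In 16 BMP genes none passed 2-fold and the median was -0.17.

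In the list around the TWEAK receptor, 2 of 15 were higher: Tnfrsf12a and Tnfaip3, a feedback inhibitor of NF-kappaB (57.8, 35.7 and 73.2, 2.05-fold, past 2-fold under 6 of 10 alternative settings that kept it). Immediate early genes had 1 higher of 24, Egr1, a growth and stretch responsive factor, at 115, 193 and 393 (2.04-fold, past 2-fold under 8 of 11 alternative settings). Of the p53 and CDK inhibitor list, Cdkn1a and Gadd45g, a growth arrest gene at 507, 320 and 152 (2.10-fold lower), were the lower genes of 19. In 18 genes of DNA replication and mitosis none passed 2-fold. Timp1, an inhibitor of matrix proteases, was the only called gene of 29 matrix genes, at 29.6, 18.1 and 48.3 (2.67-fold higher), and the list median was 0.04.

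The secreted factor list of 19 genes had no call besides Angptl4, and the 18 cytokine and STAT genes had none: Stat5b read 445, 415 and 225 and Cish, a target of STAT5, 222, 686 and 390.0. Nitrogen metabolism (18 genes) had none either. Interferon-responsive genes had a median of -0.21 with 16 of 22 below 0 and none past 2-fold.

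Of the compared markers of other cells in the muscle, Retn, S100a8 and S100a9 passed 2-fold. All 7 endothelial markers had ratios below 0, from -0.96 (Cdh5, whose other set gave 0.46) to -0.06 (Tek), with a summed intensity of 1360 on oil, 1261 at 24 h and 997 at 48 h. Of 9 macrophage markers, 8 were below 0, and the sum was 2667, 2727 and 2204. Clec10a, a lectin of macrophages, read 115, 146 and 55.4 and was 2.64-fold lower. Of 3 neutrophil markers, S100a8 and S100a9 were lower, with ratios of -1.14 and -1.30, at 56.3 and 38.1 on the 24 h array, and the dim Ngp had a ratio of 0.76. Of 6 tendon markers, 4 were below 0 and Thbs4 had the highest ratio, 0.74, with sums of 3283, 2649 and 2981. Of 4 Schwann cell markers, 2 were below 0 and Mag had the highest ratio, 0.92, with sums of 2300, 2229 and 2078. Fibroblast markers were even, with a median of 0.03 and sums of 15119, 13472 and 13545. Of 7 lymphocyte markers none passed the filter. The part of these cells in the ratios of Cxcl13, Clec10a and the interferon list was not tested.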

How the data were processed

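Values of 3 arrays were deposited by the authors as linear intensities, 1 per probe set; their summary, background correction and scaling are not given in the sources used here; the table has no detection calls. Of 45101 probe sets, 64 were controls and left out. By the platform annotation, 34945 of the rest had 1 gene, 932 had several and 9160 were unlisted. RefSeq (GRCm38.p6) changed 0 of their symbols. Probe sets with a percentile rank of 0.5 or more, averaged over the 3 arrays, were kept (21804, of which 19362 had 1 gene). Arrays were scaled to a common median of kept sets, by 1.01 (oil), 0.945 (24 h) and 1.05 (48 h), floored at 4.05, the 25th percentile of all scaled values, and taken to log2. A gene was read on its kept set of highest mean rank. With 1 array per group, no test was made, and precision is limited by that number. The calculation was tested on simulated data. The members, the 37 lists and the markers were chosen with earlier results of these data known. Named were the 20 agreeing and 10 single-set genes of each direction with the largest ratios, up to 5 members per list and a fixed set; other members were named after their values were seen. Python 3.11.15, numpy 2.4.6, pandas 2.3.3 and statsmodels 0.14.6 were used. Alternatives covered scaling, filter, floor, summary, probe set type and threshold.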

Additional observations from a re-analysis of the deposited data

How the results depend on the processing

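No paired analysis was possible because each group is 1 pooled array, and leaving out a replicate was not possible for the same reason. Counts are given as all higher and lower genes, then genes with agreeing sets higher and lower, then concordant genes higher and lower. With the deposited values unscaled they were 103 and 249, 9 and 16, and 5 and 11. With a rank minimum of 0.25 they were 756 and 681, 63 and 36, and 41 and 21. At 0.75 they were 59 and 28, 6 and 1, and 3 and 1, and with no filter 683 and 1010, 35 and 66, and 28 and 38. At a 3-fold threshold they were 37 and 20, 5 and 2, and 4 and 1. Without sets ending in _x_at, _s_at or _a_at, agreeing genes numbered 13 and 4. Under quantile normalization, lowess centring, ranks over the tamoxifen arrays alone and floors at the 50th or 5th percentile, all these counts stayed within 1.5 times. The concordant rule was added after the values were seen. Of 60 named genes past 2-fold, 42 stayed past it with the same sign under every alternative of the 11 that kept them. The other 18 were Ache, Actc1, Casq2, Ddit3, Depp1, Egr1, Enah, G0s2, Gas2l3, Inhbb, Mybph, Myog, Nrf1, Nrip1, Ppard, Slc38a1, Tgfb2 and Tnfaip3; the sign turned for Tgfb2 alone, to -0.21 without the sets that can match several transcripts, and that alternative's choice of another set is the cause. Dim signal limits most calls: 125 of the 200 higher genes were in the dimmest 2773.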

Other observations

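Of the kept probe sets, 2442 matched no gene or several, and 229 of them were 2-fold or more higher at 48 h and 32 lower. The 277 that stood 2-fold or more below the oil array at 24 h outnumbered the 33 above it. Over all 21804 kept sets, 851 were higher and 338 lower, and 1089 stood 2-fold or more below oil at 24 h against 507 above. Counted on the brightest set of each gene, 275 stood below oil at 24 h and 261 above. The balance of higher and lower differences between the days thus depended on which probe sets were read.

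Among 5001 genes with 2 or more kept sets, 10 had kept probe sets past 2-fold in both directions between the days.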
